A study of Mus musculus with 16 samples.

Results

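The genes described here were the 38 Hox cluster genes found by symbol among 24497 genes in the deposited transcript tables, 10 of HoxA, 10 of HoxB, 9 of HoxC and 9 of HoxD. Hox genes encode homeodomain transcription factors that give cells their position along the body axis. In mammals they lie in 4 clusters, HoxA to HoxD, in which low-numbered (anterior) genes sit at the 3′ end and high-numbered (posterior) genes at the 5′ end, and genes with the same number in different clusters (paralogs) are related by descent. Cells grown in culture are known to keep much of the Hox pattern of the body region they came from, and Polycomb proteins hold the silent genes off while trithorax proteins hold the active genes on.

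The study measured poly(A) RNA of C2C12 cells, a mouse myoblast line that fuses into myotubes when serum is withdrawn, and asked what the long noncoding RNA MUNC, transcribed upstream of Myod1, does in cells with and without the myogenic regulator MYOD. Cells labelled wild type (WT) or MYOD-/- were stably transfected with an empty control vector (EV) or a vector for spliced MUNC, and were taken while proliferating (GM) or differentiating (DM, written DM3 in the design). The 8 groups held 2 libraries each. All share the line, a C57BL/6 strain label, a skeletal muscle source and an age label of postnatal day 21. The MYOD-/- line was made with CRISPR-Cas9 and screened as single cells. No source used here says whether a transfectant was a pool or a clone, and a difference between clones or pools cannot be told apart from one of vector or genotype. The labels do not say that replicates were separate cultures, so each p-value reflects only the scatter among these libraries, which may be technical.

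Depth ran from 35.8 M to 108 M estimated counts per library (median 61.2 M). Values are given as CPM, a gene's counts relative to library size as scaled by edgeR's trimmed mean of M-values (TMM), or, where genes are compared with each other, as length-normalised TPM. Myod1 itself went against the genotype labels. In GM it was at 0.291 and 0.0191 CPM in the WT-labelled EV libraries, 3.72 and 4.06 in WT-labelled MUNC, 13.9 and 11.9 in MYOD-/- labelled EV and 8.17 and 4.18 in MYOD-/- labelled MUNC, and in DM at 0.143 and 0.0136, 3.18 and 1.70, 24.4 and 33.1, and 16 and 15 in the same order. The libraries labelled WT thus had less Myod1 RNA than those labelled MYOD-/-. No source used here places the deletion relative to the counted transcript. The labels are used below only as names. Of the myoblast markers, Myf5 was at 57.6 to 153 CPM in all 16 libraries, while Myod1 was at most 0.291 CPM in the 4 WT-labelled EV libraries. Markers of other cell types were not all low: over the 16 libraries they summed to 45.8 to 3358 CPM for fibroblasts (Col1a1 alone 42.4 to 2194), 5.59 to 265 for neural cells (Tubb3 4.46 to 263), 14.2 to 46 for leukocytes (Cd14 12.7 to 39.3), 1.45 to 23.2 for epithelium (Krt14 0.312 to 22.4) and 0.174 to 15.8 for endothelium (Tek 0.0633 to 14.9). In the same lists Pecam1 (endothelium) was at most 0.251 CPM, Ptprc (leukocytes) at most 0.210 and Sox10 (glia) at most 0.0191, and Epcam (epithelium), Emcn (endothelium) and Tcf21 (fibroblast progenitors) were at 0. Replicates also differed: Zrsr1 took 1.49 to 13% of counts in every library numbered 2 and 0.00795 to 0.0348% in every library numbered 1.

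The promoter sequences shown were chosen among those in the RefSeq table (GRCm38.p6), which gave 24 promoters, 250 bases before to 50 after the start, for 22 of the 38 genes. Hoxb3, Hoxb5, Hoxb6, Hoxc12, Hoxc6 and Hoxc9, on which most results below turn, are not among the 22. The 2 starts of Hoxa10 are shown because its transcripts differed in level and in their change on differentiation, Hoxa3 because it rose on differentiation in 3 of 4 lines, and Hoxb4 because it stayed near 0 between HoxB genes that differed between lines. Capitals mark every E-box (CANNTG, the letters that MYOD and related factors can bind, searched on both strands). All are written 5′ to 3′ on the gene's strand.
Hoxa3: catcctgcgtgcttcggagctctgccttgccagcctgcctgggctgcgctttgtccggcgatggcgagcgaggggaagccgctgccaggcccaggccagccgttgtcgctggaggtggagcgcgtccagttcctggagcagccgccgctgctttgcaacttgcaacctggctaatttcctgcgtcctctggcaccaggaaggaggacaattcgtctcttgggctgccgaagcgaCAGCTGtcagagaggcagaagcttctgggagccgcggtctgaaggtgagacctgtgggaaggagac
Hoxa10, upstream start: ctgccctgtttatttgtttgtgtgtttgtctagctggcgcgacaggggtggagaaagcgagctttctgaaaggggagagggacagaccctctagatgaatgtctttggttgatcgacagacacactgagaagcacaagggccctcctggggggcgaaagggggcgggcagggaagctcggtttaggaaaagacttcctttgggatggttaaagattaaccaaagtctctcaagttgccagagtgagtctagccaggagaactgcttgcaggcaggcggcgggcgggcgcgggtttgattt
Hoxa10, downstream start: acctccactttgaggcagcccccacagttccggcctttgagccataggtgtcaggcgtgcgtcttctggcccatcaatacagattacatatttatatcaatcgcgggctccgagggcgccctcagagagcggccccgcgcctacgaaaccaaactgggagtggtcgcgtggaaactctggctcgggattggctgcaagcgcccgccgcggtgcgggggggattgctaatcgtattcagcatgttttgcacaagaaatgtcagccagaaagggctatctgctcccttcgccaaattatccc
Hoxb4: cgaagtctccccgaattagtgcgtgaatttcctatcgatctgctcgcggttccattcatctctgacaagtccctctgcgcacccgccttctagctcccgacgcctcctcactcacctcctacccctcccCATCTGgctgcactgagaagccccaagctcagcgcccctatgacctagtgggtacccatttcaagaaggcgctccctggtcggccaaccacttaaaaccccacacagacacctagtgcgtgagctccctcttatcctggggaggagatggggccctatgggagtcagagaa
The Hoxa3 promoter (chr6:52213018-52213317, minus strand, 64% GC) held 1 E-box, in the form CAGCTG. Neither the upstream Hoxa10 promoter (chr6:52240805-52241104, minus strand, 54.3% GC) nor the downstream one (chr6:52234890-52235189, minus strand, 57.3% GC) held an E-box, and the downstream one held 1 TATAAA. The Hoxb4 promoter (chr11:96318017-96318316, plus strand, 58% GC) held 1 E-box, in the form CATCTG, and 1 AGGTCA, letters that retinoic acid receptors can bind. Such matches are common: of 32851 promoters of the same length 72.3% held CANNTG, 16.3% CAGCTG (a form counted within CANNTG), 16.3% AGGTCA and 13.6% TATAAA, while 17, 4, 7 and 4 of the 24 Hox promoters did. TGATTNAT, the letters bound by HOX and PBX proteins together, was in 3.22% of all promoters and in 2 of the Hox promoters. A match describes the letters and not binding.

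HoxC and HoxA supplied nearly all Hox RNA in every library. Summed over members, HoxC (chr15:102921131-103036856 in GRCm38) came to 107 to 191 TPM (median 156) and HoxA (chr6:52162417-52260880) to 54.5 to 117 TPM (median 86.8). HoxB (chr11:96194316-96368254) came to 0.401 to 3.72 TPM (median 0.622) and HoxD (chr2:74668225-74765142) to 0.0685 to 0.411 TPM (median 0.218). The share of HoxC in the Hox total of 182 to 306 TPM was 55.9 to 72.3%, and that of HoxA 27.3 to 43.8%. HoxC was the larger of the pair in every library.

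The posterior genes dominated. Members of paralog groups 9 to 13 (16 genes) made up 84.4 to 89% of Hox TPM (median 88.1%), those of groups 4 to 8 (15 genes) 10.1 to 14.5%, and those of groups 1 to 3 (7 genes) 0.473 to 1.38%. By mean TPM over the 16 libraries the order was Hoxc10 (62.3), Hoxc11 (42.9), Hoxa10 (36.7), Hoxa11 (25.2), Hoxc9 (14.1), Hoxa9 (12.4), Hoxc13 (11.3), Hoxc6 (10.1), Hoxa7 (5.73) and Hoxc4 (4.03). Hoxc10 and Hoxc11 act in the patterning of the hindlimb and the lumbosacral region, and Hoxa10 and Hoxa11 in that of the limb's upper and middle segments. Neighbours in that order overlapped in their library ranges throughout: Hoxc10 spanned 41.4 to 80.6 TPM, Hoxc11 26.9 to 75.7 and Hoxa10 16.1 to 60.9. The most posterior HoxA gene, Hoxa13, which patterns the hand and foot, had a mean of 0.177 TPM, whereas Hoxc13, known for its role in hair and nails, was at 6.87 to 22.8 TPM.

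**Figure D1:**
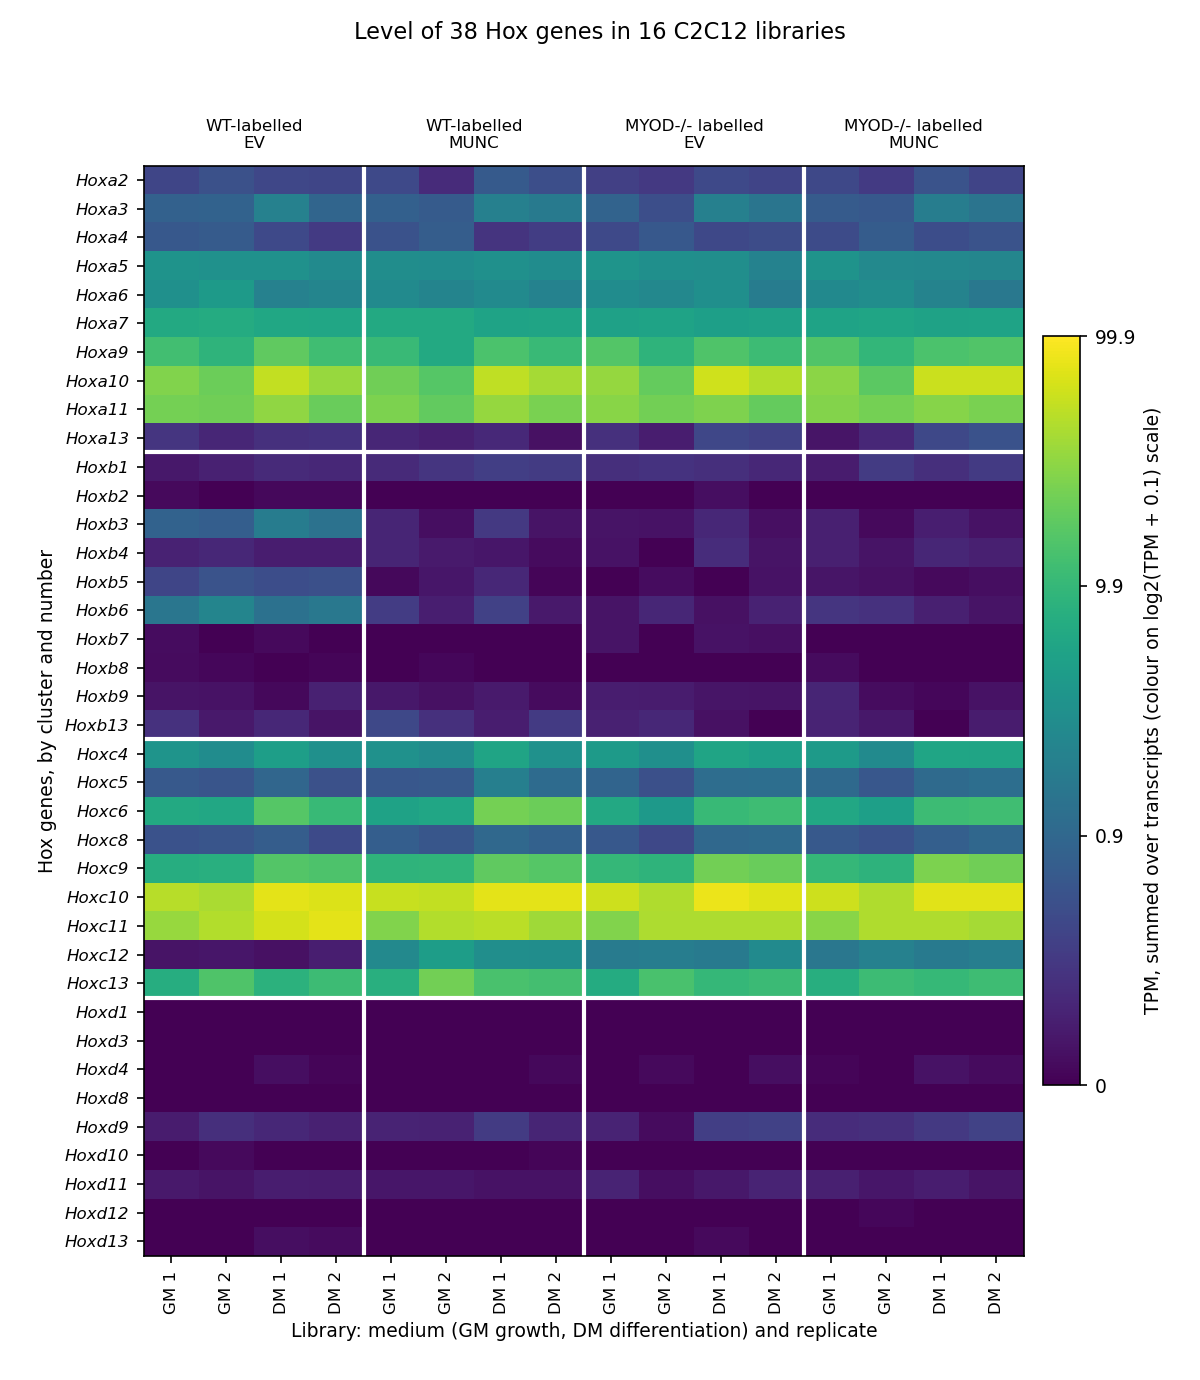
TPM (colour, log scale) of the 38 Hox genes (rows, in chromosomal order within each cluster) in the 16 libraries (columns, by line, medium and replicate). HoxA and HoxC members fill the bright rows, and HoxB and HoxD rows stay dark except Hoxb3, Hoxb5 and Hoxb6 in the WT-labelled EV libraries.

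Of the 38 genes, 24 passed edgeR's filter on low counts and were tested among 14972 genes, 18 reached a group mean of 1 CPM in at least 1 group, and 9 reached 5 CPM. The other 14 stayed below the filter, all of them in HoxB or HoxD. Their highest group means were 0.165 CPM for Hoxb13, 0.141 for Hoxb4, 0.122 for Hoxd11, 0.104 for Hoxb9, 0.0349 for Hoxd4, 0.0300 for Hoxd13, 0.0257 for Hoxb8, 0.0185 for Hoxb7, 0.0123 for Hoxb2, 0.00954 for Hoxd10 and 0.00913 for Hoxd12. The largest count in a library was 14 for Hoxb13, 11 for Hoxd11, 10 for Hoxb9, 9 for Hoxb4 and at most 3 for the others, where 3 counts, the limit that a count of 0 allows, came to 0.0287 to 0.0803 CPM. Hoxd1, Hoxd3 and Hoxd8 had 0 counts in all 16 libraries, which allows up to 0.00298 CPM over the 16 together. All Hoxd11 RNA was assigned to its noncoding transcript NR_073086. The tested genes that stayed below 1 CPM in every group were Hoxa2 (highest group mean 0.413 CPM), Hoxa4 (0.465), Hoxa13 (0.216), Hoxb1 (0.233), Hoxb5 (0.408) and Hoxd9 (0.249). A single HoxD gene, Hoxd9, was thus abundant enough to test.

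Hoxb3, Hoxb5 and Hoxb6, which pattern the neck and upper trunk, were higher in the 4 WT-labelled EV libraries than in any of the other 12, and Hoxc12, a posterior gene of the HoxC cluster, was lower there than in any of the other 12. Groups without overlap in this way numbered 3 of the 24 tested members above, against 3.29% of all genes tested, and 1 below, against 2.64% of all genes tested. These counts are a description only, since the filter, which asked for 0.164 CPM in 2 libraries, was passed by Hoxb5 and Hoxb6 only through the WT-labelled EV libraries (0 and 1 of the other 12 reached it) and by Hoxc12 only through the other 12 (0 of the 4 WT-labelled EV libraries reached it). The same holds for the shares of members called between lines below. It also holds for each call, adjusted p and interaction of Hoxb5, Hoxb6 and Hoxc12 that uses the WT-labelled EV libraries. Hoxb3 also reached the level in 3 of the other 12. The sum over HoxB was 2.95 to 3.72 TPM in the WT-labelled EV libraries and 0.401 to 1.06 TPM in the others. In bulk RNA, fewer cells that express a gene and less RNA per cell cannot be told apart.

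In GM, Hoxb3 was at 1.52 and 1.26 CPM in the WT-labelled EV libraries, 0.190 and 0.0542 in the WT-labelled MUNC libraries, 0.0803 and 0.0752 in the MYOD-/- labelled EV libraries and 0.153 and 0.0365 in the MYOD-/- labelled MUNC libraries. In DM, Hoxb3 was at 2.79 and 2.23, 0.334 and 0.0766, 0.172 and 0.0535, and 0.123 and 0.0592 CPM in the same order of lines. The WT-labelled EV libraries (1.26 to 2.79 CPM) lay above the highest of the others (0.334). In GM, Hoxb6 was at 0.970 and 1.47 CPM in the WT-labelled EV libraries, 0.158 and 0.0542 in the WT-labelled MUNC libraries, 0.0268 and 0.0752 in the MYOD-/- labelled EV libraries and 0.122 and 0.110 in the MYOD-/- labelled MUNC libraries. In DM, Hoxb6 was at 0.691 and 0.923, 0.157 and 0.0383, 0.0192 and 0.0535, and 0.0460 and 0.0237 CPM in the same order of lines. Again no other library reached the lowest WT-labelled EV value (0.691 CPM against at most 0.158). In GM, Hoxb5 was at 0.340 and 0.477 CPM in the WT-labelled EV libraries, 0.0158 and 0.0542 in the WT-labelled MUNC libraries, 0 and 0.0251 in the MYOD-/- labelled EV libraries and 0.0458 and 0.0365 in the MYOD-/- labelled MUNC libraries. In DM, Hoxb5 was at 0.351 and 0.421, 0.0982 and 0.00957, 0 and 0.0357, and 0.0153 and 0.0237 CPM in the same order of lines. Hoxb5 rested on few counts, with 46 over both WT-labelled EV GM libraries and 1 over both MYOD-/- labelled EV GM libraries, a ratio of 31.1 (5.31 to 1255) after scaling for depth, with the exact 95% interval of counting error in parentheses. In DM the counts were 63 and 2, a ratio of 20.7 (5.49 to 174).

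In GM, Hoxc12 was at 0.0162 and 0.0191 CPM in the WT-labelled EV libraries, 0.903 and 1.75 in the WT-labelled MUNC libraries, 0.589 and 0.677 in the MYOD-/- labelled EV libraries and 0.519 and 0.748 in the MYOD-/- labelled MUNC libraries. In DM, Hoxc12 was at 0.0110 and 0.0271, 0.923 and 0.976, 0.479 and 0.856, and 0.506 and 0.557 CPM in the same order of lines. Hoxc12 was near the floor in the WT-labelled EV libraries and at least 0.479 CPM in each of the others. Its counts were 2 over both WT-labelled EV GM libraries against 49 in MYOD-/- labelled EV GM, a ratio of 36.2 (9.51 to 308), and 154 in WT-labelled MUNC GM, a ratio of 74.2 (20.2 to 619). In DM the same ratios were 37.1 (12.2 to 184), from 73 against 3 counts, and 52.7 (17.7 to 258), from 149 against 3 counts. Its flanking gene Hoxc13, 8011 bases away, overlapped between WT-labelled EV and each of the other lines in GM. In DM Hoxc13 overlapped between WT-labelled EV (9.47 and 14.1 CPM) and both MYOD-/- labelled lines. It did not overlap there with WT-labelled MUNC (14.7 and 14.9 CPM). Hoxc11, on the other side and 15916 bases away, overlapped in GM but not in DM, where it was at 22.5 and 29.6 CPM in the WT-labelled EV libraries and at most 16.7 in the other 6.

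**Figure D2:**
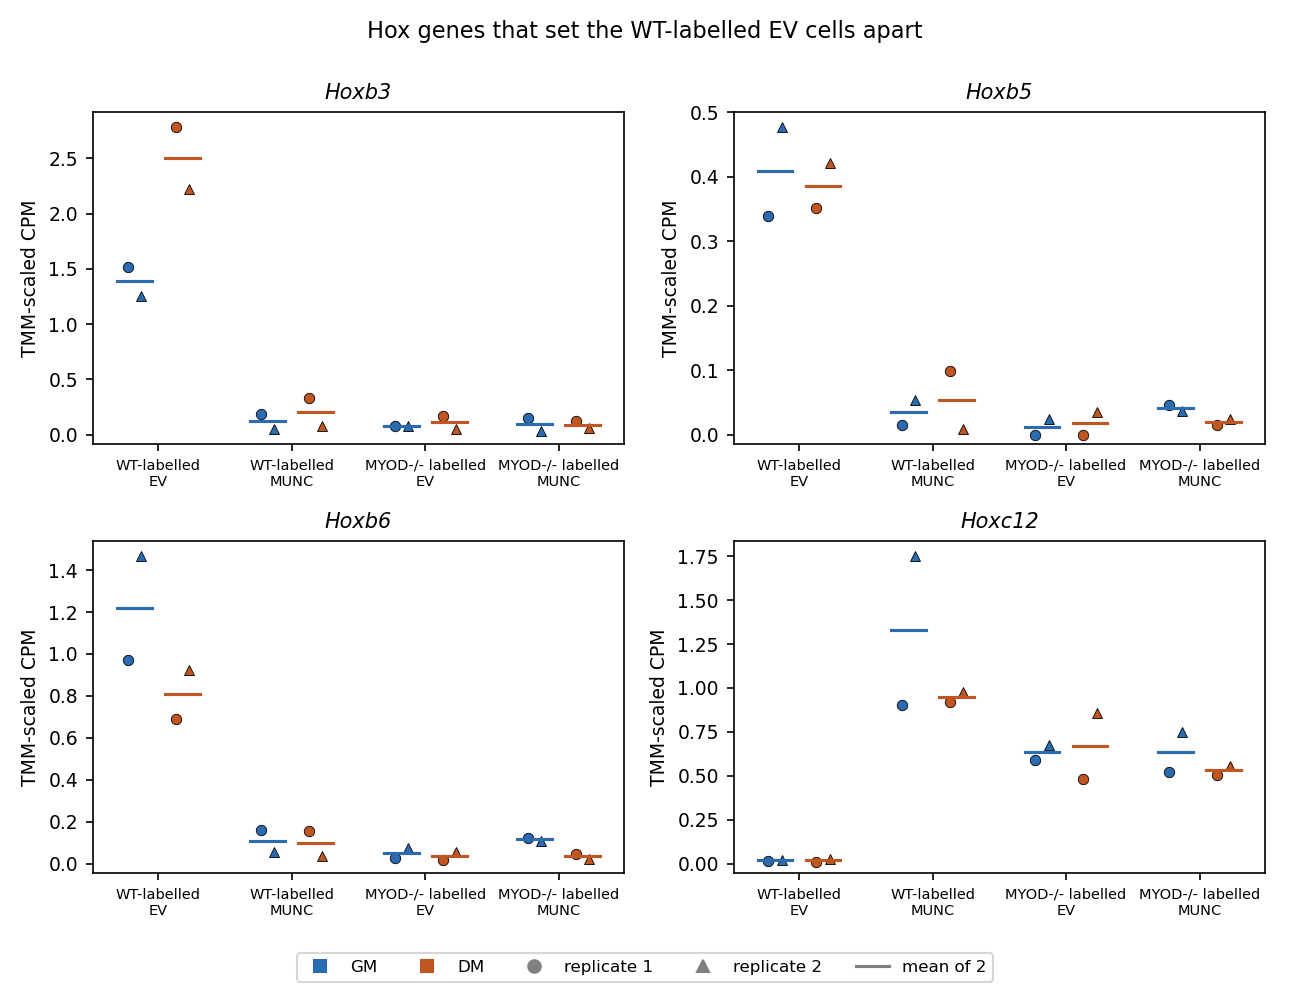
CPM of Hoxb3, Hoxb5, Hoxb6 and Hoxc12 in each library (points), by line and medium. The 4 WT-labelled EV libraries are the highest in the 3 HoxB panels and the lowest in the Hoxc12 panel.

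Between the genotype labels in EV cells, 3 members were lower and 1 higher in MYOD-/- labelled GM cells, 16.7% of those tested against 10.4% of all genes tested, 4.58% higher and 5.77% lower (edgeR quasi-likelihood test, Benjamini-Hochberg adjusted p under 0.05). The log2 fold change (± SE) was -4.13 ± 0.84 (adjusted p = 0.0102) for Hoxb3, -4.78 ± 1.10 (adjusted p = 0.0189) for Hoxb5, -4.51 ± 0.73 (adjusted p = 0.00268) for Hoxb6 and 5.03 ± 0.62 (adjusted p = 0.000525) for Hoxc12. In DM 3 members were lower and 2 higher, 20.8% against 31.4% of all genes tested, 15.3% higher and 16.1% lower. There the log2 fold changes were -4.46 ± 0.77 (adjusted p = 0.00144) for Hoxb3, -4.25 ± 0.95 (adjusted p = 0.00646) for Hoxb5, -4.38 ± 0.73 (adjusted p = 0.00116) for Hoxb6 and 5.05 ± 0.57 (adjusted p = 0.000113) for Hoxc12. The fifth call in DM was Hoxc9, which patterns the thorax, at 0.41 ± 0.12 (adjusted p = 0.0279). The GM call of Hoxb3 ended without MYOD-/- labelled EV replicate 1 (0.0678) or MYOD-/- labelled EV replicate 2 (0.0824) and that of Hoxb5 without WT-labelled EV replicate 2 (0.0798), MYOD-/- labelled EV replicate 1 (0.118) or MYOD-/- labelled EV replicate 2 (0.0732), the values in parentheses being adjusted p. In DM, Hoxb5 lost its call without MYOD-/- labelled EV replicate 1 (0.057) and Hoxc9 without WT-labelled EV replicate 1 (0.119), WT-labelled EV replicate 2 (0.115), MYOD-/- labelled EV replicate 1 (0.16), MYOD-/- labelled EV replicate 2 (0.0988) or with no filter on low counts (0.136).

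With MUNC in WT-labelled cells, Hoxb3, Hoxb5 and Hoxb6 were lower and Hoxc12 higher than with EV. In GM 3 members were lower and 1 higher with MUNC (16.7% against 13.8% of all genes tested, 6.04% higher and 7.71% lower), at log2 fold changes of -3.46 ± 0.75 (adjusted p = 0.0108) for Hoxb3, -3.51 ± 0.85 (adjusted p = 0.0195) for Hoxb5, -3.47 ± 0.62 (adjusted p = 0.00376) for Hoxb6 and 6.09 ± 0.60 (adjusted p = 8.11e-05) for Hoxc12. In DM 3 were lower and 2 higher (20.8% against 33.3%, 15.6% higher and 17.7% lower), at -3.73 ± 0.72 (adjusted p = 0.00232) for Hoxb3, -3.11 ± 0.80 (adjusted p = 0.0114) for Hoxb5, -3.20 ± 0.63 (adjusted p = 0.00264) for Hoxb6 and 5.55 ± 0.56 (adjusted p = 3.2e-05) for Hoxc12. Hoxc6, a trunk gene, was the fifth, at 0.72 ± 0.22 (adjusted p = 0.0246). These comparisons share the WT-labelled EV libraries with those between the genotype labels, so the 2 sets of values are set side by side and are not independent. In GM, Hoxb3 lost its call without WT-labelled EV replicate 1 (0.0505) or WT-labelled MUNC replicate 2 (0.0933), and Hoxb5 without WT-labelled EV replicate 1 (0.0539), WT-labelled EV replicate 2 (0.0877), WT-labelled MUNC replicate 1 (0.141) or WT-labelled MUNC replicate 2 (0.0678). In DM, Hoxb5 lost its call without WT-labelled MUNC replicate 2 (0.121), and Hoxc6 without WT-labelled EV replicate 2 (0.187), WT-labelled MUNC replicate 1 (0.0907) or WT-labelled MUNC replicate 2 (0.0915).

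In MYOD-/- labelled cells, where MUNC RNA was raised less, no member passed between MUNC and EV. MUNC (Gm45923) was at 1821 to 2670 CPM in WT-labelled MUNC libraries, 43 to 132 in MYOD-/- labelled MUNC libraries and 1.15 to 12.4 in EV libraries. By edgeR 0 of 24 members passed in GM and 0 in DM, with 0 in each at an unadjusted p under 0.05 and 0 in each by DESeq2. Of all genes tested 0% and 0% passed by edgeR, 191 and 152 had an unadjusted p under 0.05, and DESeq2 called 0 and 4. For the genes above the log2 fold changes in GM were 0.32 ± 1.02 for Hoxb3, 1.54 ± 1.49 for Hoxb5, 1.14 ± 0.87 for Hoxb6 and 0.00 ± 0.40 for Hoxc12. In DM they were -0.33 ± 0.90, 0.11 ± 1.37, -0.12 ± 0.98, and -0.33 ± 0.39.

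The difference of the MUNC change between the genotype labels was tested as an interaction. In GM it passed for Hoxb6, at 4.61 ± 1.05 (adjusted p = 0.0286) on the log2 scale, and for Hoxc12, at -6.09 ± 0.74 (adjusted p = 0.000866), 8.33% of the members against 4.93% of all genes tested, 2.76% higher and 2.17% lower. In DM it passed for Hoxc12 alone among the members, at -5.88 ± 0.70 (adjusted p = 0.000226), 4.17% against 18.1%, 10.1% higher and 8.01% lower. Hoxc12 kept both calls in every setting in which it was tested. The Hoxb6 call ended without WT-labelled EV replicate 2 (0.0825), WT-labelled MUNC replicate 2 (0.0887), MYOD-/- labelled EV replicate 1 (0.108), MYOD-/- labelled EV replicate 2 (0.0606), MYOD-/- labelled MUNC replicate 1 (0.0739) or MYOD-/- labelled MUNC replicate 2 (0.0685). Hoxb3 did not pass, at 3.78 ± 1.26 (adjusted p = 0.129) in GM and 3.40 ± 1.15 (adjusted p = 0.0635) in DM, and in DM it passed with no filter on low counts (0.049), by DESeq2 (0.0352) and without WT-labelled MUNC replicate 1 (0.0268). Hoxb5 was at 5.05 ± 1.70 (adjusted p = 0.134) in GM and 3.22 ± 1.69 (adjusted p = 0.223) in DM, and Hoxb6 in DM at 3.08 ± 1.22 (adjusted p = 0.107).

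Between the genotype labels in MUNC cells the HoxB genes and Hoxc12 were not called by the main test. With the replicate number as a block, Hoxc12 was called in GM, where 15.9% of all genes tested passed. In GM 0 of 24 members passed by edgeR or by DESeq2 (9.99% of all genes tested passed by edgeR, 4.98% higher and 5.02% lower), and 1, Hoxc12 at -1.07 ± 0.39 (adjusted p = 0.111), had an unadjusted p under 0.05. In DM 2 members passed, 8.33% against 22.7% of all genes, 12.8% higher and 9.89% lower. Of these, Hoxa13 passed the low-count filter only through MYOD-/- labelled DM libraries, where it was high, so its call is a description only. Its counts were 12 and 21 in MYOD-/- labelled MUNC DM libraries against 3 and 2 in WT-labelled MUNC DM libraries. Hoxa13 was higher in MYOD-/- labelled cells, at 2.62 ± 0.60 (adjusted p = 0.009), with 0.184 and 0.249 CPM against 0.0589 and 0.0191, a call that ended without WT-labelled MUNC replicate 2 (0.147) or MYOD-/- labelled MUNC replicate 2 (0.0683). Hoxc6 was lower, at -1.02 ± 0.22 (adjusted p = 0.00653), and kept its call in every setting tried.

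Some neighbours of the differing HoxB genes were near 0. Hoxb4 lies inside the RefSeq span of Hoxb3 (chr11:96307101-96347930), its start at 96318267 being upstream of the start of the Hoxb3 transcript that took most counts (NM_001079869, 96323326). Hoxb4 itself stayed at 0 to 0.153 CPM in all libraries, and Hoxb7 and Hoxb2 at 0 to 0.0268 and 0 to 0.0192 CPM. The noncoding Hoxb5os, which overlaps Hoxb5 and Hoxb6 on the other strand, was at most 0.267 CPM. The strand setting of the counting is not stated, so reads of overlapping antisense genes may not have been told apart.

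Marker sums of other cell types moved with the line in part. Fibroblast markers (7 genes, 5 tested, Tcf21 at 0) summed in GM to 522 to 1654 CPM in WT-labelled EV, 45.8 to 210.1 in WT-labelled MUNC, 99.4 to 768 in MYOD-/- labelled EV and 90.8 to 664 in MYOD-/- labelled MUNC libraries, so that the first pair of lines did not overlap. In DM they were at 958 to 1411, 830 to 1447, 1904 to 2846 and 1704 to 3358 CPM in the same order, and WT-labelled EV lay below both MYOD-/- labelled lines. Endothelial markers (5 genes, 3 tested, Emcn at 0) were over both media at 0.453 to 0.610 CPM in WT-labelled EV and at most 0.452 in WT-labelled MUNC. The lowest WT-labelled EV sum, 0.4528, and the highest WT-labelled MUNC sum, 0.4515, are too close to tell these lines apart. In the MYOD-/- labelled libraries the sums were at least 1.07 and reached 15.8, without overlap with WT-labelled EV.

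Leukocyte markers (6 genes, 5 tested, Ptprc at most 0.210 CPM) were in GM at 25.4 to 29.8 CPM in WT-labelled EV and 16.4 to 22.3 in WT-labelled MUNC, without overlap, and at 15.9 to 46 in the MYOD-/- labelled libraries. In DM they were at 43.4 to 44 in WT-labelled EV and 14.2 to 20.1 in all others. Epithelial markers (5 genes, 4 tested, Epcam at 0) were in GM at 13.6 to 23.2 CPM in WT-labelled EV, 17 to 18.8 in WT-labelled MUNC and, without overlap, 8.67 to 11 in the MYOD-/- labelled libraries, and in DM at 12.9 to 18.5 in WT-labelled EV and 1.45 to 5.58 in all others. Neural markers (5 genes, 3 tested, Sox10 at most 0.0191 CPM) were in GM at 26.2 to 27.3 CPM in WT-labelled EV, 11 to 14.6 in WT-labelled MUNC, 17.4 to 46.5 in MYOD-/- labelled EV and 34.1 to 64.8 in MYOD-/- labelled MUNC libraries. In DM the neural sums were 7.11 to 9.91, 5.59 to 6.00, 119.6 to 166.5 and 119.1 to 265 CPM, and WT-labelled EV overlapped with none of the others. The ranges of single genes within these sums (Col1a1, Tubb3, Cd14, Krt14 and Tek) are given above. A sum led by a single gene need not reflect cells of that type. The part of these markers in the Hox differences was not tested.

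On differentiation the share of Hox genes called was below that of all genes in each of the 4 lines, a difference that was not tested. The members that rose in at least 1 line were Hoxa3, Hoxa10, Hoxa13, Hoxc5, Hoxc6, Hoxc9, Hoxc10 and Hoxd9, and those that fell were the neighbours Hoxa4, Hoxa5, Hoxa6 and Hoxa7. In WT-labelled EV cells 3 members rose and 2 fell (20.8% of the 24, against 37.5% of all genes tested, 19.2% higher and 18.3% lower), in MYOD-/- labelled EV cells 4 and 1 (20.8% against 43.2%, 23.5% higher and 19.7% lower), in WT-labelled MUNC cells 5 and 2 (29.2% against 39.8%, 20.5% higher and 19.2% lower), and in MYOD-/- labelled MUNC cells 5 and 1 (25% against 44.8%, 24.4% higher and 20.4% lower). Of the 24, 12 (50%) passed in at least 1 line, against 63.1% of all genes tested. Without regard to any test, DM lay above GM with no overlap in all 4 lines for 5 members, Hoxa3, Hoxa10, Hoxc6, Hoxc9 and Hoxc10, which is 20.8% of the 24 against 20.7% of all genes tested. DM lay below GM in this way for 3 members, Hoxa5, Hoxa6 and Hoxa7, 12.5% against 18.8%. Both shares are near or below those of all genes, and the values below describe single members.

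**Figure D3:**
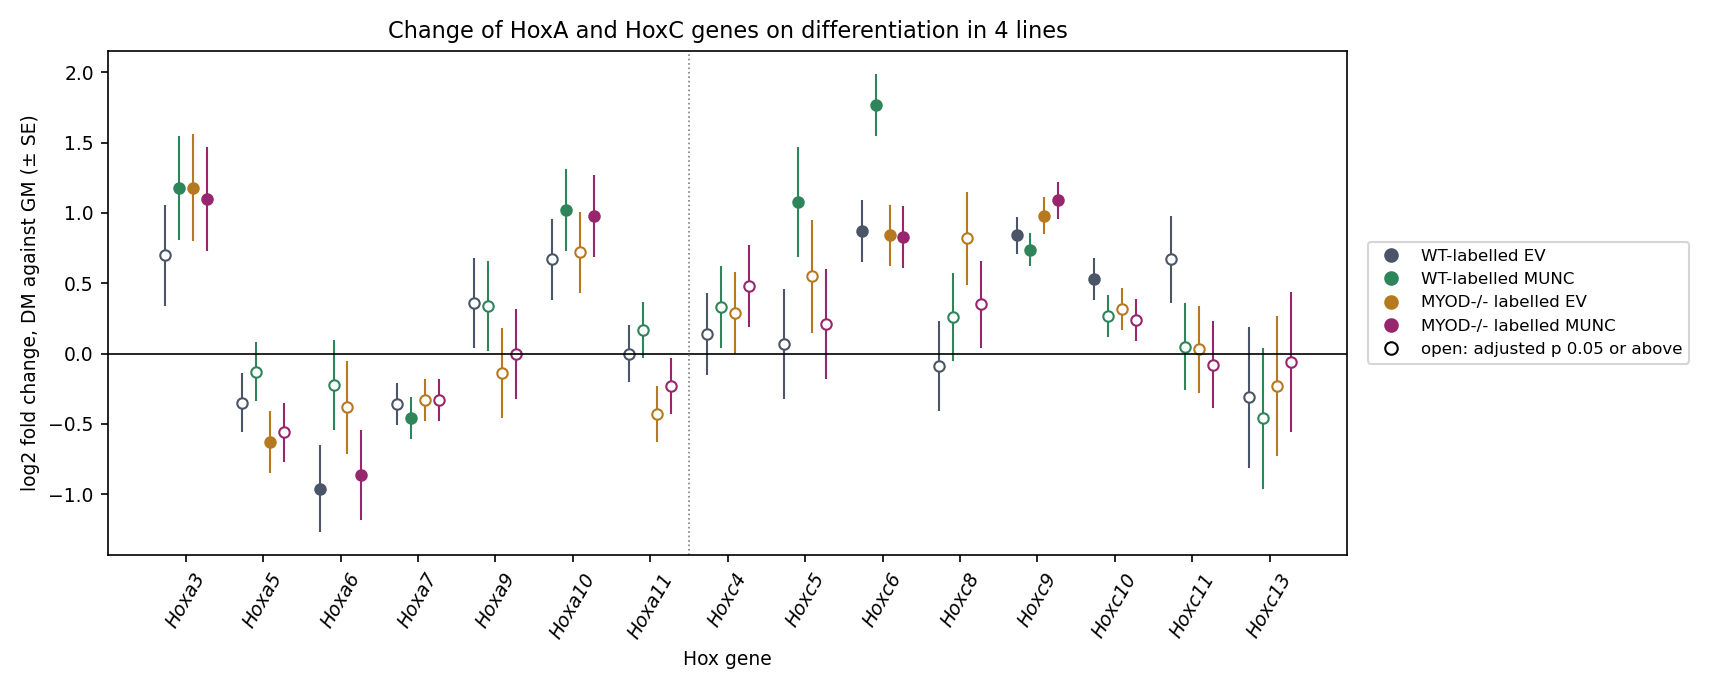
Log2 fold change, DM against GM, with its SE (bars), of 15 HoxA and HoxC genes in the 4 lines, filled where the adjusted p was under 0.05. Hoxc9 and Hoxc6 are filled and above 0 in all 4 lines, and the points of Hoxa5, Hoxa6 and Hoxa7 lie below 0.

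Hoxc9, which patterns the thoracic segments, rose in all 4 lines. In GM, Hoxc9 was at 6.73 and 6.79 CPM in the WT-labelled EV libraries, 7.78 and 8.32 in the WT-labelled MUNC libraries, 8.24 and 8.02 in the MYOD-/- labelled EV libraries and 8.55 and 7.59 in the MYOD-/- labelled MUNC libraries. In DM, Hoxc9 was at 12 and 12.2, 13.8 and 13.1, 16.3 and 15.9, and 18.4 and 16 CPM in the same order of lines. Every DM library was above every GM library of its line. On the log2 scale the change was 0.84 ± 0.13 (adjusted p = 0.000419) in WT-labelled EV, 0.98 ± 0.13 (adjusted p = 0.000135) in MYOD-/- labelled EV, 0.74 ± 0.12 (adjusted p = 0.000882) in WT-labelled MUNC and 1.09 ± 0.13 (adjusted p = 7.21e-05) in MYOD-/- labelled MUNC cells. All 4 calls held in every setting tried.

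Hoxc6, its neighbour towards the anterior end beyond Hoxc8, also rose in all 4 lines. In GM, Hoxc6 was at 5.48 and 4.96 CPM in the WT-labelled EV libraries, 4.28 and 4.95 in the WT-labelled MUNC libraries, 4.95 and 3.38 in the MYOD-/- labelled EV libraries and 4.83 and 3.92 in the MYOD-/- labelled MUNC libraries. In DM, Hoxc6 was at 11.1 and 7.94, 15.8 and 15.7, 6.77 and 8.10, and 7.65 and 7.87 CPM in the same order of lines. The highest levels were those of WT-labelled MUNC cells in DM. Its log2 fold change was 0.87 ± 0.22 (adjusted p = 0.0094) in WT-labelled EV, 0.84 ± 0.22 (adjusted p = 0.0108) in MYOD-/- labelled EV, 1.77 ± 0.22 (adjusted p = 0.000144) in WT-labelled MUNC and 0.83 ± 0.22 (adjusted p = 0.0104) in MYOD-/- labelled MUNC cells. Whether the change differed between EV and MUNC was not tested. The first call ended without GM replicate 2 (0.0691) or DM replicate 1 (0.0851), the second without GM replicate 2 (0.152) or DM replicate 2 (0.081) and the last without GM replicate 2 (0.0942) or DM replicate 2 (0.0548).

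Hoxa3, an anterior gene that patterns the neck and pharyngeal arches, rose in 3 lines. In GM, Hoxa3 was at 1.08 and 1.07 CPM in the WT-labelled EV libraries, 0.998 and 0.885 in the WT-labelled MUNC libraries, 1.04 and 0.601 in the MYOD-/- labelled EV libraries and 0.855 and 0.767 in the MYOD-/- labelled MUNC libraries. In DM, Hoxa3 was at 2.37 and 1.11, 2.24 and 2.03, 2.13 and 1.60, and 1.99 and 1.49 CPM in the same order of lines. DM exceeded GM in each line without overlap. Hoxa3 had log2 fold changes of 1.18 ± 0.38 (adjusted p = 0.0262) in MYOD-/- labelled EV, 1.18 ± 0.37 (adjusted p = 0.0249) in WT-labelled MUNC and 1.10 ± 0.37 (adjusted p = 0.0307) in MYOD-/- labelled MUNC cells, and 0.70 ± 0.36 (adjusted p = 0.155) in WT-labelled EV cells, which did not pass. The first call ended without GM replicate 2 (0.231) or DM replicate 1 (0.165), the second without GM replicate 1 (0.0785), GM replicate 2 (0.122), DM replicate 1 (0.103) or DM replicate 2 (0.0673) and the third without GM replicate 1 (0.073), GM replicate 2 (0.143), DM replicate 1 (0.177) or DM replicate 2 (0.0517).

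Hoxa10, which patterns the upper limb segment and the uterus, was higher in DM in all lines and passed the main test only in the MUNC lines. With the replicate number as a block Hoxa10 was called in all 4 lines. Of all genes tested 46.1, 51.2, 47.5 and 52.9% passed there (WT-labelled EV, MYOD-/- labelled EV, WT-labelled MUNC, MYOD-/- labelled MUNC). Whether its change differed between EV and MUNC cells was not tested. In GM, Hoxa10 was at 32.9 and 25 CPM in the WT-labelled EV libraries, 26.8 and 20 in the WT-labelled MUNC libraries, 38.3 and 24.5 in the MYOD-/- labelled EV libraries and 35.2 and 21 in the MYOD-/- labelled MUNC libraries. In DM, Hoxa10 was at 53.4 and 38.6, 51.5 and 43.1, 57.5 and 46.1, and 56.6 and 54.7 CPM in the same order of lines. DM was above GM in all 4 lines, and within each group replicate 1 was above replicate 2. Its change on the log2 scale was 1.02 ± 0.29 (adjusted p = 0.016) in WT-labelled MUNC and 0.98 ± 0.29 (adjusted p = 0.0164) in MYOD-/- labelled MUNC cells, whereas 0.67 ± 0.29 (adjusted p = 0.0896) in WT-labelled EV and 0.72 ± 0.29 (adjusted p = 0.0627) in MYOD-/- labelled EV cells did not pass. The first call ended without GM replicate 2 (0.12) or DM replicate 1 (0.0965), the second without GM replicate 2 (0.146), DM replicate 1 (0.0744) or DM replicate 2 (0.0612).

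Most Hoxa10 RNA was assigned to the transcript of the upstream start shown above (NM_001122950, chr6:52240854). Its TPM was 12.4 to 29.2 in the 8 GM libraries (median 17.8) and 29 to 54.1 in the 8 DM libraries (median 47). The transcript of the downstream start (NM_008263, chr6:52234939) was at 3.06 to 5.18 TPM in GM (median 4.37) and 5.18 to 7.51 in DM (median 5.70). The upstream transcript's share of Hoxa10 TPM had a median of 81.2% in GM and 88% in DM. These shares come from the authors' transcript estimates and were not tested.

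**Figure D4:**
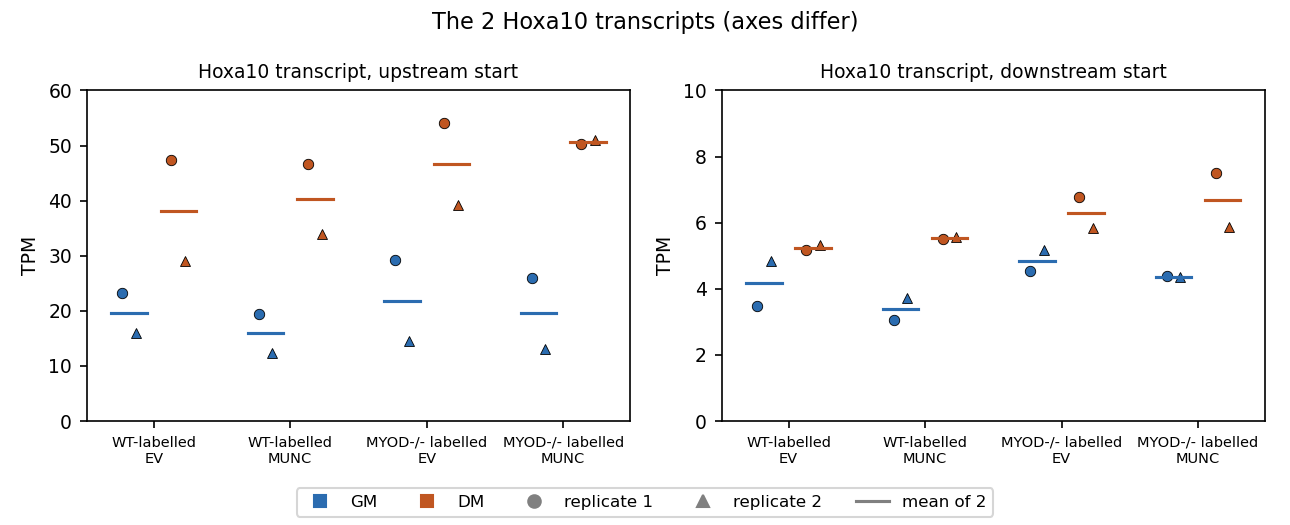
TPM of the 2 Hoxa10 transcripts in each library (points), by line and medium. The transcript of the upstream start has a median of 17.8 TPM in GM and 47 in DM, and that of the downstream start 4.37 and 5.70.

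Hoxc10, the most abundant Hox gene, rose in WT-labelled EV cells. In GM, Hoxc10 was at 48.6 and 41 CPM in the WT-labelled EV libraries, 56.3 and 54.7 in the WT-labelled MUNC libraries, 56.7 and 44.6 in the MYOD-/- labelled EV libraries and 57.2 and 43.8 in the MYOD-/- labelled MUNC libraries. In DM, Hoxc10 was at 64.1 and 64.9, 63.8 and 69.9, 64.5 and 62.3, and 59.9 and 59.7 CPM in the same order of lines. DM was above GM without overlap in each line, at log2 fold changes of 0.53 ± 0.15 (adjusted p = 0.0169) in WT-labelled EV cells, 0.32 ± 0.15 in MYOD-/- labelled EV, 0.27 ± 0.15 in WT-labelled MUNC and 0.24 ± 0.15 in MYOD-/- labelled MUNC cells, with adjusted p of 0.103, 0.176 and 0.206 in the last 3. The call ended without GM replicate 2 (0.137), DM replicate 1 (0.0547) or DM replicate 2 (0.0561). Hoxc5, a cervical gene, rose in WT-labelled MUNC cells. In GM, Hoxc5 was at 0.905 and 0.763 CPM in the WT-labelled EV libraries, 0.824 and 0.903 in the WT-labelled MUNC libraries, 1.18 and 0.677 in the MYOD-/- labelled EV libraries and 1.41 and 0.803 in the MYOD-/- labelled MUNC libraries. In DM, Hoxc5 was at 1.11 and 0.638, 2.30 and 1.38, 1.28 and 1.43, and 1.21 and 1.35 CPM in the same order of lines. WT-labelled MUNC DM replicate 1 was the highest library, and replicate 2 lay within the range of the other lines. The log2 fold change there was 1.08 ± 0.39 (adjusted p = 0.0463), a call that ended without GM replicate 1 (0.17), GM replicate 2 (0.131), DM replicate 1 (0.313) or with no filter on low counts (0.0592).

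**Figure D5:**
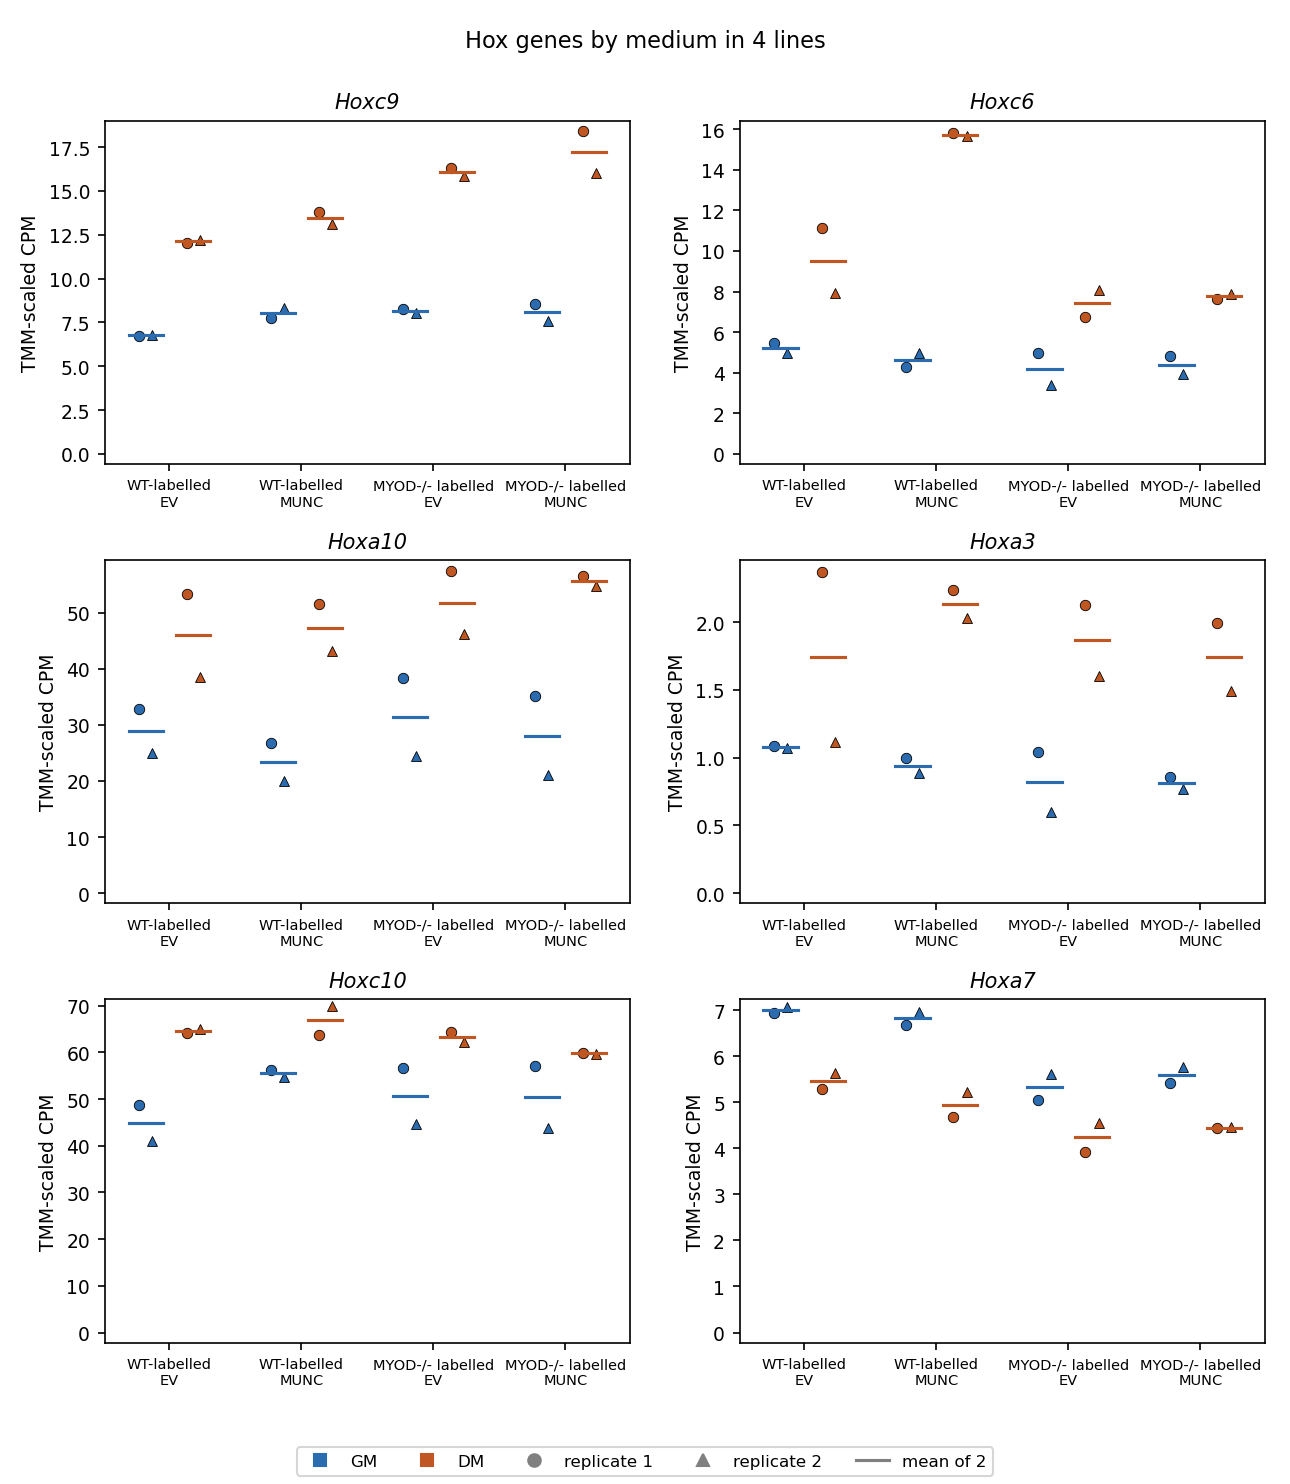
CPM of Hoxc9, Hoxc6, Hoxa10, Hoxa3, Hoxc10 and Hoxa7 in each library (points), by line and medium. In the first 5 panels the DM points of each line lie above its GM points, and in the Hoxa7 panel the DM points are the lower ones.

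The genes that fell lie side by side in HoxA. Hoxa4, of the cervical region, stayed below 1 CPM and fell in the WT-labelled lines, from 0.453 and 0.477 CPM in GM to 0.241 and 0.163 in DM with EV and from 0.364 and 0.524 to 0.118 and 0.182 with MUNC. Its log2 fold changes were -1.18 ± 0.41 (adjusted p = 0.0398) and -1.51 ± 0.42 (adjusted p = 0.015). The EV call ended without GM replicate 1 (0.103), GM replicate 2 (0.129), DM replicate 1 (0.0677), DM replicate 2 (0.186), with no filter on low counts (0.0724) or with DESeq2 (0.0907), and the MUNC call without GM replicate 2 (0.1) or DM replicate 1 (0.0938). Hoxa4 had changes of -0.59 ± 0.44 (adjusted p = 0.302) in MYOD-/- labelled EV and -0.45 ± 0.40 (adjusted p = 0.394) in MYOD-/- labelled MUNC cells, which did not pass. Its change in EV cells differed between the genotype labels by 0.60 ± 0.60 (adjusted p = 0.668), which did not pass either. Hoxa5, a regulator of lung and rib development, fell in MYOD-/- labelled EV cells. In GM, Hoxa5 was at 3.41 and 3.11 CPM in the WT-labelled EV libraries, 2.76 and 2.76 in the WT-labelled MUNC libraries, 3.21 and 3.03 in the MYOD-/- labelled EV libraries and 3.24 and 2.41 in the MYOD-/- labelled MUNC libraries. In DM, Hoxa5 was at 2.69 and 2.42, 2.55 and 2.50, 2.32 and 1.71, and 1.98 and 1.85 CPM in the same order of lines. DM lay below GM in each line, with a log2 fold change of -0.63 ± 0.22 (adjusted p = 0.0347) in MYOD-/- labelled EV cells. In WT-labelled EV, WT-labelled MUNC and MYOD-/- labelled MUNC cells it was -0.35 ± 0.21 (adjusted p = 0.213), -0.13 ± 0.21 (adjusted p = 0.668) and -0.56 ± 0.21 (adjusted p = 0.0507). The MYOD-/- labelled EV call ended without GM replicate 1 (0.0849), GM replicate 2 (0.0664), DM replicate 2 (0.239) or with no filter on low counts (0.0542).

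Hoxa6, next to Hoxa5, fell in 2 lines. In GM, Hoxa6 was at 0.905 and 1.18 CPM in the WT-labelled EV libraries, 0.729 and 0.632 in the WT-labelled MUNC libraries, 0.749 and 0.702 in the MYOD-/- labelled EV libraries and 0.703 and 0.840 in the MYOD-/- labelled MUNC libraries. In DM, Hoxa6 was at 0.472 and 0.597, 0.628 and 0.545, 0.690 and 0.428, and 0.506 and 0.344 CPM in the same order of lines. All libraries were near or below 1 CPM, and DM lay below GM in each line. Its log2 fold change was -0.96 ± 0.31 (adjusted p = 0.0319) in WT-labelled EV and -0.86 ± 0.32 (adjusted p = 0.0478) in MYOD-/- labelled MUNC cells. The first call ended without GM replicate 2 (0.178), DM replicate 1 (0.182), DM replicate 2 (0.0577) or with no filter on low counts (0.0615), the second without GM replicate 1 (0.0672), GM replicate 2 (0.169), DM replicate 2 (0.236), with no filter on low counts (0.0734) or with DESeq2 (0.068). Hoxa7, a trunk gene, fell in WT-labelled MUNC cells. In GM, Hoxa7 was at 6.94 and 7.08 CPM in the WT-labelled EV libraries, 6.68 and 6.95 in the WT-labelled MUNC libraries, 5.06 and 5.61 in the MYOD-/- labelled EV libraries and 5.42 and 5.77 in the MYOD-/- labelled MUNC libraries. In DM, Hoxa7 was at 5.30 and 5.63, 4.67 and 5.22, 3.93 and 4.55, and 4.43 and 4.46 CPM in the same order of lines. The spread was narrow, with each line's DM libraries just below its GM libraries. Its log2 fold change was -0.46 ± 0.15 (adjusted p = 0.0295) in WT-labelled MUNC cells, a call that ended without GM replicate 1 (0.0782), GM replicate 2 (0.116), DM replicate 1 (0.154), DM replicate 2 (0.0603) or with no filter on low counts (0.0784). In the other lines it was -0.36 ± 0.15 (adjusted p = 0.0803) in WT-labelled EV, -0.33 ± 0.15 (adjusted p = 0.0988) in MYOD-/- labelled EV and -0.33 ± 0.15 (adjusted p = 0.0921) in MYOD-/- labelled MUNC cells.

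A pair of posterior genes at low levels completed the calls. The filter was passed by Hoxa13 only through DM libraries (0 of 8 in GM reached its level) and by Hoxd9 with 1 of 8 in GM and 5 of 8 in DM. Hoxa13 rose in MYOD-/- labelled MUNC cells, from 0.0305 and 0.0730 CPM in GM to 0.184 and 0.249 in DM, a log2 fold change of 2.07 ± 0.58 (adjusted p = 0.0131) whose call ended without GM replicate 1 (0.1), DM replicate 2 (0.0829) or with DESeq2 (0.0739). Hoxd9, a thoracolumbar gene, rose in MYOD-/- labelled EV cells, from 0.107 and 0.0251 to 0.230 and 0.268 CPM, a log2 fold change of 1.91 ± 0.63 (adjusted p = 0.0299) whose call ended without GM replicate 2 (0.256), DM replicate 1 (0.0786), DM replicate 2 (0.112), with no filter on low counts (0.0571) or with DESeq2 (0.0971). Whether differentiation differed between the genotype labels was tested in EV cells. By edgeR 0 of 24 members passed and by DESeq2 0, against 2.58% of all genes tested by edgeR (1.66% higher and 0.922% lower), and 1, Hoxd9 at 2.18 ± 0.85 (adjusted p = 0.211), had an unadjusted p under 0.05.

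Marker sums of other cell types also differed between the media. Fibroblast markers summed to 522 to 1654 CPM in GM and 958 to 1411 in DM in WT-labelled EV, 45.8 to 210.1 and 830 to 1447 in WT-labelled MUNC, 99.4 to 768 and 1904 to 2846 in MYOD-/- labelled EV, and 90.8 to 664 and 1704 to 3358 in MYOD-/- labelled MUNC cells. They overlapped between media in WT-labelled EV cells and did not in the other 3 lines. Endothelial markers overlapped between media in WT-labelled EV cells and were higher in DM in the others, at 0.174 to 0.181 and 0.230 to 0.452 CPM in WT-labelled MUNC, 1.07 to 2.76 and 4.10 to 9.18 in MYOD-/- labelled EV and 1.63 to 7.36 and 7.77 to 15.8 in MYOD-/- labelled MUNC cells. Leukocyte markers were higher in DM in WT-labelled EV cells (25.4 to 29.8 and 43.4 to 44), overlapped in WT-labelled MUNC and were lower in MYOD-/- labelled EV (15.9 to 34.1 and 14.6 to 15) and MUNC cells (16.4 to 46 and 14.2 to 15.6). Epithelial markers overlapped in WT-labelled EV cells and were lower in DM in WT-labelled MUNC (17 to 18.8 and 5.14 to 5.58), MYOD-/- labelled EV (10.4 to 10.9 and 1.98 to 2.09) and MYOD-/- labelled MUNC cells (8.67 to 11 and 1.45 to 1.70). Neural markers were lower in DM in both WT-labelled lines and higher in both MYOD-/- labelled lines, without overlap, with the sums given above. Myoblast markers (10 genes, 9 tested) were at 346 to 581.6 CPM in GM and 569.9 to 732 in DM in WT-labelled EV cells, which overlapped, and without overlap at 308 to 539 and 844 to 886 in WT-labelled MUNC, 556 to 836 and 1758 to 2145 in MYOD-/- labelled EV and 472 to 875.1 and 1807 to 2014 in MYOD-/- labelled MUNC cells. Their part in the Hox changes was not tested.

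Of the 24 tested members, 8 (33.3%) passed in none of the 15 comparisons (12 between groups and 3 interactions), against 23.7% of all genes tested: Hoxa2, Hoxa9, Hoxa11, Hoxb1, Hoxc4, Hoxc8, Hoxc11 and Hoxc13. Several are abundant. In GM, Hoxc11 was at 14.4 and 18.3 CPM in the WT-labelled EV libraries, 10.9 and 19 in the WT-labelled MUNC libraries, 10.6 and 17.9 in the MYOD-/- labelled EV libraries and 11.8 and 18 in the MYOD-/- labelled MUNC libraries. In DM, Hoxc11 was at 22.5 and 29.6, 16.7 and 14.4, 13.9 and 15.3, and 15 and 13.4 CPM in the same order of lines. Hoxc11, a hindlimb and sacral gene, was highest in the WT-labelled EV DM libraries, where the log2 fold change to MYOD-/- labelled EV was -0.84 ± 0.31 (adjusted p = 0.0607) and to WT-labelled MUNC -0.75 ± 0.31 (adjusted p = 0.0852). In GM, Hoxa11 was at 30.1 and 27.1 CPM in the WT-labelled EV libraries, 31 and 23.6 in the WT-labelled MUNC libraries, 33.8 and 28.3 in the MYOD-/- labelled EV libraries and 33.3 and 28.8 in the MYOD-/- labelled MUNC libraries. In DM, Hoxa11 was at 33.4 and 23.9, 33.7 and 27.9, 25.6 and 20.6, and 28.4 and 24.7 CPM in the same order of lines. Hoxa11, needed for the middle segment of the limb, overlaps the antisense gene Hoxa11os, so reads of the pair may not have been told apart. Its log2 fold changes on differentiation were 0.00 ± 0.20 in WT-labelled EV, -0.43 ± 0.20 in MYOD-/- labelled EV, 0.17 ± 0.20 in WT-labelled MUNC and -0.23 ± 0.20 in MYOD-/- labelled MUNC cells.

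In GM, Hoxa9 was at 21.7 and 15.2 CPM in the WT-labelled EV libraries, 18.5 and 11.5 in the WT-labelled MUNC libraries, 26.1 and 15.6 in the MYOD-/- labelled EV libraries and 25.4 and 16.5 in the MYOD-/- labelled MUNC libraries. In DM, Hoxa9 was at 27.8 and 19.5, 20.7 and 17.4, 20.6 and 17.2, and 20.2 and 21.6 CPM in the same order of lines. Hoxa9, known for its part in satellite cells and in blood stem cells, had log2 fold changes on differentiation of 0.36 ± 0.32 in WT-labelled EV, -0.14 ± 0.32 in MYOD-/- labelled EV, 0.34 ± 0.32 in WT-labelled MUNC and 0.00 ± 0.32 in MYOD-/- labelled MUNC cells. Its transcript NM_010456 had a median of 4.68 TPM in GM and 9.72 in DM, and NM_001277238, with the same start (chr6:52227370), 5.47 and 4.56. In GM, Hoxc13 was at 9.93 and 19.2 CPM in the WT-labelled EV libraries, 10 and 30.6 in the WT-labelled MUNC libraries, 8.59 and 18.1 in the MYOD-/- labelled EV libraries and 9.42 and 14.7 in the MYOD-/- labelled MUNC libraries. In DM, Hoxc13 was at 9.47 and 14.1, 14.7 and 14.9, 10.3 and 12.4, and 10.8 and 12.3 CPM in the same order of lines. Hoxc13 moved with the replicate number, replicate 2 being above replicate 1 in all 8 groups. In GM replicate 2 was 1.56 to 3.05 times replicate 1.

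In GM, Hoxc4 was at 3.80 and 2.82 CPM in the WT-labelled EV libraries, 3.34 and 2.89 in the WT-labelled MUNC libraries, 4.15 and 3.23 in the MYOD-/- labelled EV libraries and 4.21 and 2.72 in the MYOD-/- labelled MUNC libraries. In DM, Hoxc4 was at 4.21 and 3.08, 4.85 and 3.03, 4.68 and 4.33, and 4.94 and 4.73 CPM in the same order of lines. Hoxc4, the most anterior HoxC gene, had log2 fold changes on differentiation of 0.14 ± 0.29 in WT-labelled EV, 0.29 ± 0.29 in MYOD-/- labelled EV, 0.33 ± 0.29 in WT-labelled MUNC and 0.48 ± 0.29 in MYOD-/- labelled MUNC cells. In GM, Hoxc8 was at 0.615 and 0.648 CPM in the WT-labelled EV libraries, 0.871 and 0.704 in the WT-labelled MUNC libraries, 0.696 and 0.451 in the MYOD-/- labelled EV libraries and 0.718 and 0.584 in the MYOD-/- labelled MUNC libraries. In DM, Hoxc8 was at 0.735 and 0.448, 1.00 and 0.890, 0.959 and 1.07, and 0.736 and 0.924 CPM in the same order of lines. Hoxc8, a brachial and thoracic gene between Hoxc6 and Hoxc9, did not pass where its neighbours did, with 0.82 ± 0.33 (adjusted p = 0.062) in MYOD-/- labelled EV cells as its largest change on differentiation. Across all groups replicate 1 was above replicate 2 for 5 members (Hoxa3, Hoxa10, Hoxa11, Hoxb3 and Hoxc4), 20.8% of those tested against 4.23% of all genes tested. Replicate 1 was below replicate 2 for 3 (Hoxa7, Hoxc12 and Hoxc13), 12.5% against 3.99%.

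HOX proteins bind DNA together with homeodomain partners of the TALE class (PBX, MEIS and PREP). Of these genes 8 are described here, all of them tested. On differentiation 1 rose and 1 fell in WT-labelled EV cells, 1 and 1 in MYOD-/- labelled EV, 1 and 1 in WT-labelled MUNC and 2 and 1 in MYOD-/- labelled MUNC cells, with list medians (log2) of 0.10, 0.17, 0.05 and 0.10 in the same order, against 0.02, 0.08, 0.06 and 0.05 over all genes tested. The share called was 25, 25, 25 and 37.5%, against 37.5, 43.2, 39.8 and 44.8% of all genes. Pbx3 fell in all 4 lines (-0.84, -0.39, -0.38 and -0.54 in that order), Pbx2 rose in MYOD-/- labelled EV (0.56), WT-labelled MUNC (0.39) and MYOD-/- labelled MUNC (0.50) cells, and Meis2 rose in WT-labelled EV (0.53) and MYOD-/- labelled MUNC (0.75) cells. Between lines, 0 were higher and 1 lower in MYOD-/- than in WT-labelled EV cells in GM and 1 and 1 in DM, and 1 was higher and 1 lower with MUNC in WT-labelled cells in GM and 1 and 2 in DM. In these 4 comparisons 12.5, 25, 25 and 37.5% were called, against 10.4, 31.4, 13.8 and 33.3% of all genes. Pbx3 was higher in DM, by 0.53 in MYOD-/- than in WT-labelled EV cells and by 0.73 with MUNC in WT-labelled cells, and Meis1 was higher with MUNC in WT-labelled GM cells (0.65). Meis3 was lower in MYOD-/- labelled cells, at -2.09 ± 0.24 (adjusted p = 0.000336) in EV GM, -2.55 ± 0.24 (adjusted p = 3.56e-05) in EV DM, -1.17 ± 0.23 (adjusted p = 0.0093) in MUNC GM and -1.5 ± 0.23 (adjusted p = 0.00103) in MUNC DM. Pbx4 was lower with MUNC in WT-labelled cells (-1.69 in GM and -1.40 in DM). Pknox1, at 25.5 to 40.4 CPM, was the most abundant of those that passed in none of the 15 comparisons.

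Polycomb complexes write and read the histone marks that keep Hox genes silent. Of 22 of their genes, all tested, 5 rose and 4 fell in WT-labelled EV cells, 7 and 3 in MYOD-/- labelled EV, 7 and 4 in WT-labelled MUNC and 8 and 4 in MYOD-/- labelled MUNC cells, with list medians of 0.04, 0.19, 0.25 and 0.12 in the same order, against 0.02, 0.08, 0.06 and 0.05 over all genes tested. The share called was 40.9, 45.5, 50 and 54.5%, against 37.5, 43.2, 39.8 and 44.8% of all genes. Ezh2, the methyltransferase of proliferating cells, fell in all 4 lines (-1.0, -0.97, -1.08 and -0.82 in that order), as did its partner Eed (-0.68, -0.94, -1.0 and -0.82) and the accessory subunit Phf19 (-2.18, -1.56, -1.47 and -1.66). Ezh1, the methyltransferase of resting cells, rose (1.43, 1.20, 2.05 and 1.12), as did Phf1 (0.93, 1.01, 1.28 and 1.00) and Phc3 (0.58, 0.97, 0.56 and 0.96). Between lines, 1 was higher and 2 lower in MYOD-/- than in WT-labelled EV cells in GM and 3 and 5 in DM, and 2 were higher and 4 lower with MUNC in WT-labelled cells in GM and 6 and 6 in DM. In these 4 comparisons 13.6, 36.4, 27.3 and 54.5% were called, against 10.4, 31.4, 13.8 and 33.3% of all genes. With MUNC in WT-labelled cells Ezh2 was lower (-0.85 ± 0.15, adjusted p = 0.00334 in GM, -0.93 ± 0.15, adjusted p = 0.000715 in DM), as was Cbx8 (-0.71 and -0.69), while Rnf2, the ubiquitin ligase, was higher (0.79 and 0.86). Bmi1, at 92.8 to 156 CPM, passed in none of these comparisons.

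Trithorax proteins and other activators keep Hox genes on. Of 13 such genes, all tested, 1 rose and 5 fell in WT-labelled EV cells, 1 and 6 in MYOD-/- labelled EV, 1 and 5 in WT-labelled MUNC and 1 and 5 in MYOD-/- labelled MUNC cells, with list medians of -0.46, -0.29, -0.28 and -0.32 in the same order, against 0.02, 0.08, 0.06 and 0.05 over all genes tested. The share called was 46.2, 53.8, 46.2 and 46.2%, against 37.5, 43.2, 39.8 and 44.8% of all genes. Kdm6b, the demethylase that removes the Polycomb mark, was the gene that rose (1.10, 1.11, 1.37 and 1.06 in that order). Dpy30 (-0.89, -0.84, -0.98 and -0.70), Wdr5 (-0.53, -0.84, -0.66 and -0.77) and the insulator protein gene Ctcf (-0.55, -0.50, -0.34 and -0.39) fell in all 4 lines. Between lines, in GM, 0 of the 13 passed between the genotype labels in EV cells and 0 with MUNC in WT-labelled cells. Of all genes tested 10.4 and 13.8% passed there. In DM 1 was higher and 1 lower in MYOD-/- than in WT-labelled EV cells, and 2 were higher and 1 lower with MUNC in WT-labelled cells. These DM shares are 15.4 and 23.1%, against 31.4 and 33.3% of all genes. Kat6a, at 109.7 to 156 CPM, and Kmt2a, the trithorax methyltransferase itself, at 50.1 to 110.1 CPM, passed in none of the comparisons named.

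Cdx factors, retinoic acid and Gdf11 set Hox domains in the embryo. Of 20 such genes 13 were tested, and 2 rose and 1 fell in WT-labelled EV cells, 6 and 0 in MYOD-/- labelled EV, 6 and 1 in WT-labelled MUNC and 8 and 1 in MYOD-/- labelled MUNC cells, with list medians of 0.55, 0.73, 0.85 and 0.63 in the same order, against 0.02, 0.08, 0.06 and 0.05 over all genes tested. The share called was 23.1, 46.2, 53.8 and 69.2%, against 37.5, 43.2, 39.8 and 44.8% of all genes. Cdx2 and Cdx4 had 0 counts in every library. Cyp26a1 and Cyp26c1, which break down retinoic acid, rose in all 4 lines from low levels, at 4.11, 4.71, 4.02 and 5.06 for Cyp26a1 and 3.88, 3.92, 3.34 and 4.04 for Cyp26c1 in that order. Cyp26a1 was at 0.0722 to 0.267 CPM in GM and 1.15 to 4.57 in DM. Crabp2, which carries retinoic acid to the nucleus, rose in MYOD-/- labelled EV (1.33), WT-labelled MUNC (2.39) and MYOD-/- labelled MUNC (1.24) cells. Between lines, 2 were higher and 2 lower in MYOD-/- than in WT-labelled EV cells in GM and 4 and 3 in DM, and 1 was higher and 1 lower with MUNC in WT-labelled cells in GM and 3 and 2 in DM. In these 4 comparisons 30.8, 53.8, 15.4 and 38.5% were called, against 10.4, 31.4, 13.8 and 33.3% of all genes. Crabp2 was lower in MYOD-/- labelled EV cells (-3.61 ± 0.49, adjusted p = 0.000915 in GM, -3.17 ± 0.47, adjusted p = 0.000582 in DM), and Rarb, a receptor gene that retinoic acid induces, was higher (1.77 ± 0.39, adjusted p = 0.0155 and 2.0 ± 0.37, adjusted p = 0.00203). Aldh1a1, which makes retinoic acid, was at 0 and 0 CPM in WT-labelled EV GM libraries and 1.28 and 1.93 in MYOD-/- labelled EV GM libraries. Rxrb, at 25.5 to 63.2 CPM, was the most abundant of those that passed in none.

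Genes beside and within the clusters, 17 tested of 26 found, gave the local context. Here 6 rose and 2 fell in WT-labelled EV cells, 4 and 1 in MYOD-/- labelled EV, 4 and 1 in WT-labelled MUNC and 4 and 0 in MYOD-/- labelled MUNC cells, with list medians of 0.31, -0.02, 0.01 and 0.01 in the same order, against 0.02, 0.08, 0.06 and 0.05 over all genes tested. The share called was 47.1, 29.4, 29.4 and 23.5%, against 37.5, 43.2, 39.8 and 44.8% of all genes. Hotair, the noncoding RNA between Hoxc11 and Hoxc12, rose in all 4 lines (2.26, 1.51, 1.52 and 1.42 in that order), from 1.68 to 3.59 CPM in GM to 3.73 to 12.7 in DM. Calcoco1, beyond the HoxC cluster, and Skap2, beyond HoxA, rose in all 4 lines as well (2.46, 2.89, 2.72 and 2.78, and 1.03, 0.88, 0.75 and 0.94). Hoxa11os rose in WT-labelled MUNC cells (0.83 ± 0.12, adjusted p = 0.000404). Between lines, 0 were higher and 2 lower in MYOD-/- than in WT-labelled EV cells in GM and 1 and 5 in DM, and 0 were higher and 3 lower with MUNC in WT-labelled cells in GM and 1 and 7 in DM. In these 4 comparisons 11.8, 35.3, 17.6 and 47.1% were called, against 10.4, 31.4, 13.8 and 33.3% of all genes. Snx10, near HoxA, was lower in MYOD-/- labelled EV cells (-4.74 ± 0.36, adjusted p = 2.31e-05 in GM, -5.70 ± 0.36, adjusted p = 3.17e-06 in DM). Beside HoxB, Skap1 was lower with MUNC in WT-labelled cells (-2.04 in GM, -1.65 in DM), and Cbx1 likewise (-0.62 and -0.47). Mira, at 3.76 to 8.06 CPM, was the most abundant of those that passed in none of these comparisons.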

How the data were processed

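Poly(A) RNA of 16 libraries in 8 groups of 2 was sequenced in paired-end runs from NEBNext Ultra Directional libraries, per the labels' protocols. Reads were converted with bcl2fastq and quantified with kallisto, with mm10 named as the build, per the submitters' processing notes. The sources used here name no version and no strand setting. The deposited tables hold the authors' estimated counts and TPM for 35818 transcripts, of which 35492 were named from a RefSeq table (GRCm38.p6) and 188 from GENCODE M21. The 138 without a symbol (0.28 to 0.941% of counts) were left out of library sizes and tests. Estimated counts were summed per symbol and rounded, and TPM was summed per symbol. The 38 members had 44 transcripts, and 33 had a single one. One further gene of the clusters and 1 of the listed cofactors are not reported here, and the counts and medians of members and cofactors leave them out.

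Counts were tested with edgeR 4.0.16 in R 4.3.3 (TMM scaling, filterByExpr, a mean per group over all 16 libraries, quasi-likelihood F test) on 14972 genes, with p-values adjusted by Benjamini-Hochberg over all of them and a threshold of 0.05. The fit had 8 residual degrees of freedom. SE is the log2 fold change divided by the square root of F. The alternatives tried were DESeq2 1.42.0, edgeR with size factors from DESeq2, no filter, a filter of 5 CPM in 2 libraries, a replicate block, and leaving out each library. Counts were simulated for the genotype labels in EV GM cells (14972 genes, 50 changed per size). The test recovered 56% of 2-fold, 86% of 4-fold, 92% of 8-fold and 48% of 0.5-fold changes, with 3.42% false calls. The changed genes were drawn from those with a mean of at least 1 CPM over the 16 libraries. All other genes had the same mean in every group. These shares therefore do not cover genes of lower mean, such as Hoxb3, Hoxb5, Hoxb6 and Hoxc12. Intervals on count ratios are exact at 95% and cover counting error only.

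Values in every library are given for genes with a group mean of at least 1 CPM in at least 1 group, and each comparison names up to 8 members past the threshold. Members below 1 CPM are named with their highest group mean. From the lists of cofactors, regulators, neighbours and markers, genes past the threshold are named, with the most abundant that did not pass. The members, lists and tests were chosen with earlier results of these data known.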

Additional observations from a re-analysis of the deposited data

Results flagged for a closer look

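In 3 cases the change with MUNC differed between the genotype labels by the interaction test (edgeR quasi-likelihood test, Benjamini-Hochberg adjusted p). In GM cells, Hoxb6 had an interaction of 4.61 ± 1.05 on the log2 scale (adjusted p = 0.0286), being lower with MUNC in WT-labelled cells. In GM cells, Hoxc12 had one of -6.09 ± 0.74 (adjusted p = 0.000866), being higher with MUNC in WT-labelled cells. In DM cells the Hoxc12 interaction was -5.88 ± 0.70 (adjusted p = 0.000226). Hoxb6 passed the low-count filter only through the WT-labelled EV libraries (1 of the other 12 reached it), and Hoxc12 only through the other 12. The interactions use the same WT-labelled EV libraries as the comparisons between groups and are not independent of them. MUNC RNA was at 43 to 132 CPM in MYOD-/- labelled MUNC libraries and 1821 to 2670 in WT-labelled MUNC libraries. Leaving out 1 library kept both Hoxc12 calls and ended that of Hoxb6 for 6 of the 8 GM libraries, at adjusted p of 0.0606 to 0.108.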

How the results depend on the processing

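Of 46 calls of a Hox gene in a comparison, 18 held in every setting that tested the gene and none of the 46 reversed. The other 28 were lost without at least 1 library, 8 of them also when the low-count filter was dropped and 4 under DESeq2. Leaving out 1 library gave 1 to 4 called members on differentiation in WT-labelled EV cells, 1 to 6 in MYOD-/- labelled EV, 2 to 5 in WT-labelled MUNC and 1 to 4 in MYOD-/- labelled MUNC cells. Between the genotype labels it gave 2 to 4 in EV GM, 3 to 5 in EV DM, 0 in MUNC GM and 1 to 2 in MUNC DM cells. For MUNC against EV in WT-labelled cells it gave 2 to 3 in GM and 4 to 6 in DM, with 0 in MYOD-/- labelled cells. The MUNC interactions gave 1 to 2 in GM and 1 to 3 in DM, and that of differentiation gave 0. With no filter 3 members were called on differentiation in WT-labelled EV cells, 3 in MYOD-/- labelled EV cells, and 2 in the MUNC interaction in DM. Among the 18 calls that held are calls of Hoxb3, Hoxb6 and Hoxc12. Of these genes, Hoxb6 and Hoxc12 passed the low-count filter only through the libraries where they were high, so their calls are a description only. A filter of 5 CPM in 2 libraries removed Hoxb3, Hoxb5, Hoxb6 and Hoxc12 from the test and so could not end their calls. It left 3, 2, 4 and 3 members on differentiation (WT-labelled EV, MYOD-/- labelled EV, WT-labelled MUNC, MYOD-/- labelled MUNC), 0 and 1 between the genotype labels in EV GM and DM, 1 in MUNC DM, 0 and 1 for MUNC against EV in WT-labelled GM and DM, and 0 in both MUNC interactions. DESeq2 called 2 in the MUNC interaction in DM. Apart from the fewer genes and libraries, the cause was not tested.

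The replicate numbers do not pair the libraries by the labels. Over 28 pairs of groups, the correlation of same-numbered deviations ran from -0.0126 to 0.712 (median 0.255) and was above 0.1 in 23. With the replicate number as a block, 8 members were called on differentiation in WT-labelled EV cells, 8 in MYOD-/- labelled EV cells, 8 between the genotype labels in EV DM cells, 1 (Hoxc12) in MUNC GM cells and 2 in the MUNC interaction in DM. Calls rose over all genes tested as well, to 46.1, 51.2, 40.2, 15.9 and 25.7% in these 5 comparisons from 37.5, 43.2, 31.4, 9.99 and 18.1% without the block. The Hoxb3 interaction, not called without the block, had an adjusted p of 0.0283 in GM and 0.00926 in DM with it. The block ended no call. With 2 libraries a group, changes in genes near 3 counts per library cannot be measured closely.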

Other observations

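Homeobox genes outside the clusters that act in limb and muscle, and the limb T-box genes, were counted in the same way (19 of 20 found, 12 tested). Between the genotype labels in EV cells 2 were higher and 0 lower in MYOD-/- labelled cells in GM, and 4 and 1 in DM. With MUNC in WT-labelled cells 3 were higher and 1 lower in GM, and 6 and 2 in DM. The share called was 16.7, 41.7, 33.3 and 66.7% in these 4 comparisons, against 10.4, 31.4, 13.8 and 33.3% of all genes tested. The list medians (log2) in these comparisons were 0.06, 0.84, -0.12 and 0.65, against -0.04, -0.02, -0.03 and 0.00 over all genes tested. Prrx1, a marker of limb mesenchyme, was at 39.1 and 28.1 CPM in WT-labelled EV GM libraries, 108 and 88.2 in MYOD-/- labelled EV and 112 and 80.3 in WT-labelled MUNC GM libraries. Its log2 fold change in GM was 1.55 ± 0.30 (adjusted p = 0.00776) between the genotype labels and 1.52 ± 0.30 (adjusted p = 0.00679) with MUNC, and in DM 2.22 ± 0.31 (adjusted p = 0.000392) and 2.34 ± 0.31 (adjusted p = 0.000212) (edgeR, Benjamini-Hochberg). Shox2, a proximal limb gene, was higher in the same comparisons, at 0.66 and 0.53 in GM and 0.97 and 0.65 in DM. Alx4 was lower with MUNC in WT-labelled cells, at -2.02 in GM and -3.70 in DM, and Pitx3, a gene of differentiating muscle, was higher, at 2.50 and 3.80. These comparisons share the WT-labelled EV libraries. Tbx4 and Pitx1, which mark the hindlimb, and Tbx5, which marks the forelimb, were at most 0.214, 0.0357 and 0.452 CPM in any library.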
